A study of Caenorhabditis elegans with 18 samples.

Results

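The mitochondrial ribosomal protein genes of *C. elegans* were described in day 1 adult hermaphrodites of 6 genotypes. Members were the genes whose WormBase symbol starts with *mrpl* (large subunit) or *mrps* (small subunit) followed by a number, whose normalized count averaged at least 10 over the 18 libraries. The name table held 70 such symbols, 69 of them were in the count table of 24998 genes, and all 69 passed the filter that left 13472 genes to test. Of these, 40 encode large subunit proteins and 29 encode small subunit proteins. The symbol *mrpl-42* was not analysed here.

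Whole animals were grown for 72 h at 20°C on *E. coli* OP50 at about 5000 animals per plate, and polyadenylated RNA was sequenced from 3 independent libraries per genotype. Besides N2 wild-type there were 3 single mutants, with the alleles *rhd43* of *fbxl-5*, *n333* of *lin-29* and *mg360* of *rict-1*. A pair of double mutants joined *rhd43* to either of the other alleles and is written as *lin-29; fbxl-5* and *rict-1; fbxl-5*. FBXL-5 is an F-box protein, a class of substrate adaptors of ubiquitin ligases, and its allele is a nonsense mutation. LIN-29 is a zinc finger transcription factor that ends larval development of the hypodermis, and RICT-1 is the Rictor subunit of the kinase complex mTORC2. The *mg360* allele is a missense change that may leave some function, and each strain carries 1 allele per gene, so an effect of an allele and of its strain cannot be told apart.

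Mitochondrial ribosomes translate the few proteins encoded by the mitochondrial genome, all of them subunits of the respiratory chain and the ATP synthase. Their RNA is transcribed inside the organelle, whereas every protein of the particle is encoded in the nucleus, made on cytosolic ribosomes and imported. Members whose number is also used for a bacterial ribosomal protein (up to 36 in the large and up to 21 in the small subunit) largely form the conserved core, and higher numbers mark proteins added in mitochondria. By this count 41 members have a bacterial counterpart and 28 are specific to mitochondria. In *C. elegans*, knockdown of *mrps-5* is known to extend lifespan and to induce the mitochondrial unfolded protein response.

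Libraries held between 13434120 and 29733059 reads on genes, and a member rested on 178 to 7849 reads in a library before any scaling. In *fbxl-5* replicate 3, 30.0% of the reads fell on ribosomal RNA genes. The mutated genes are point mutants and their transcripts check the labels weakly: *fbxl-5* transcript was at 312 to 551 normalized counts in *lin-29* libraries, against 86.5 to 110.1 in wild-type and 138 to 141 in *fbxl-5* libraries. Unless another test is named, fold changes are differences in log2(normalized count + 1) from a limma fit of all 18 libraries, with the SE of the fit. A gene was called when its Benjamini-Hochberg adjusted p-value over all 13472 genes was below an FDR of 1%.

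Members were well expressed. Their mean normalized count per kilobase of annotated exon ran from 258 to 3001, with a median of 1005 and the middle of the distribution between 867 and 1226. Every one of the 69 lay above 233, the median over all genes tested on the same per-length scale, where the middle of the distribution ran from 46.4 to 867. Large and small subunit members had median levels per kilobase of 993 and 1029. The highest level was that of *mrpl-44*, whose protein carries a ribonuclease III-like fold, at 3001 normalized counts per kilobase. A coding gene annotated on the same strand shares exon bases with *mrpl-44*, so its reads may not all be its own. Next came *mrps-11*, a protein of the small subunit platform, at 1825, and *mrpl-11*, at the base of the stalk that receives translation factors, at 1748 per kilobase. The lowest were *mrps-31* at 258 and *mrpl-37* and *mrpl-45*, both at 429 per kilobase, all 3 of them proteins specific to mitochondria.

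The members also share features of position that the choice by name did not use. On the WBcel235 assembly 22 of the 69 (31.9%) lie on chromosome III, which holds 15.9% of the genes tested. Chromosomes I, II, IV and V hold 15, 12, 10 and 10 members, and the X chromosome holds 0, against 14.5% of the genes tested (1952 genes). A coding gene ends within 500 bp upstream on the same strand of 26 members (37.7%), compared with 19.4% of the 12990 coding genes tested, and such close spacing is typical of the operons of this species. One such pair consists of 2 members: *mrpl-4* (V:8467265-8468943) starts 105 bp after *mrps-2* (V:8465686-8467159), both on the plus strand. *mrps-22* (II:10582618-10584236, plus strand) lies 105 bp downstream of *dap-3*, which encodes a further small subunit protein that binds GTP. For 19 members an exon overlaps an exon of another coding gene, and the other 50 gave medians close to those of the full list in each comparison described below.

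Over the 6 genotypes the members moved within a narrow band. The ratio of a member's highest to its lowest genotype mean had a median of 1.35, compared with 1.77 over all genes tested. It exceeded 1.5 in 5 members and 2 in 1 member, *mrpl-23*. The highest mean was in *fbxl-5* animals for 54 members, in wild-type for 9 and in *lin-29; fbxl-5* animals for 6. The lowest was in *lin-29* for 31, in *rict-1; fbxl-5* for 17, in *rict-1* for 11, in *lin-29; fbxl-5* for 7 and in wild-type for 3. Across the 7 comparisons of genotypes 28 members were called at least once and 41 were never called. The 28 are 40.6% of the members, whereas 56.1% of all genes tested were called at least once.

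**Figure D1:**
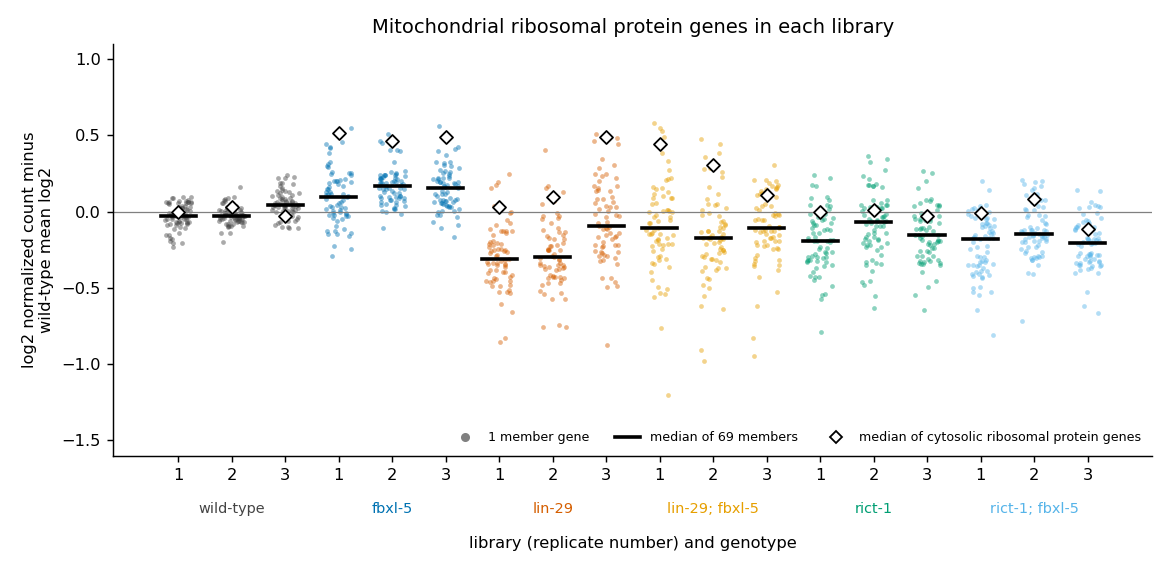
Each point is 1 of the 69 members in 1 library, plotted as log2 normalized count minus its mean in wild-type, with the 3 libraries of each genotype side by side. Bars mark the median of the members and open diamonds the median of the cytosolic ribosomal protein genes. The member medians lie at 0.10, 0.17 and 0.15 in *fbxl-5* libraries and at -0.31, -0.30 and -0.10 in *lin-29* libraries.

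The first comparison asks how adults without *lin-29* differ from wild-type. Members fell more often than they rose: 18 of 69 (26.1%) were called lower and 1 (1.45%) higher, where 18.4% of all genes tested were called lower and 22.6% higher, but with scaling to total reads 3 members were called in each direction. The median member fold change was -0.22, against -0.01 over all genes tested, and 56 members had a lower mean than in wild-type, while 49.3% of all genes had a higher one. All 3 *lin-29* libraries lay below all 3 wild-type libraries for 34 members (31.0% of all genes tested) and above them for 3 (30.1%). The share called lower is thus not far above that of genes at large, and the share called higher is far below it. With edgeR, TMM or scaling to total reads the members' share called lower was below that of genes at large. In whole animals, fewer cells of a type and less RNA per cell cannot be told apart.

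The 3 largest falls were in *mrpl-23*, *mrps-23* and *mrps-31*. *mrpl-23* (I:6211270-6211885, minus strand) encodes a protein that surrounds the exit of the peptide tunnel in bacterial and mitochondrial ribosomes. Its normalized counts were 737, 896 and 926 in wild-type and 468, 502 and 462 in *lin-29* animals. The groups did not overlap, and the log2 fold change was -0.83 ± 0.12 (SE, n = 3 per group, limma adjusted p = 3.03e-05).

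*mrps-23* (III:9523121-9523672, minus strand), a small subunit protein specific to mitochondria, had 616, 616 and 725 normalized counts in wild-type and 366, 385 and 481 in *lin-29*. Its fold change was -0.67 ± 0.13 on the log2 scale (limma adjusted p = 0.000327). *mrps-31* (III:3627234-3630372, minus strand), also specific to mitochondria, fell from 668, 704 and 708 normalized counts to 496, 414 and 494. This is a log2 fold change of -0.57 ± 0.08 (limma adjusted p = 3.03e-05), again with no overlap between groups.

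Other members of known place fell less. *mrpl-24*, a neighbour of *mrpl-23* at the tunnel exit in the ribosome, had 995, 998 and 1007 normalized counts in wild-type and 726, 689.9 and 710.2 in *lin-29*, a log2 fold change of -0.50 (limma adjusted p = 0.000468). *mrpl-11* went from 1344, 1214 and 1341 to 972, 1029 and 1082 normalized counts, a log2 fold change of -0.34 (limma adjusted p = 0.00297). The stalk proteins that *mrpl-10* and *mrpl-12* encode did not pass the threshold, with log2 fold changes of -0.21 ± 0.07 and -0.17 ± 0.10. The same holds for *mrps-12*, the decoding centre protein, at -0.24 ± 0.09, and for *mrpl-2*, a core protein near the catalytic centre, at -0.06 ± 0.14. The remaining called members fell by 0.30 to 0.48 on the log2 scale: *mrpl-54*, *mrpl-51*, *mrpl-32*, *mrps-15*, *mrpl-20*, *mrps-18.C*, *mrpl-34*, *mrps-18A*, *mrps-2*, *mrps-24*, *mrpl-1*, *mrpl-19* and *mrps-26*. The table holds *mrps-18.C* and *mrps-18C* as separate genes.

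The single member called higher in *lin-29* was *mrps-5* (V:12563487-12565801, plus strand), the small subunit gene of the lifespan work named above. It had 1905, 1811 and 1671 normalized counts in wild-type and 2056, 2377 and 2475 in *lin-29*. The lowest mutant library stood above the highest wild-type library, and the log2 fold change was 0.36 ± 0.09 (limma adjusted p = 0.00455). It lies 103 bp downstream of *sel-1*, which had a log2 fold change of -0.23 in the same comparison (limma adjusted p = 0.0268).

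**Figure D2:**
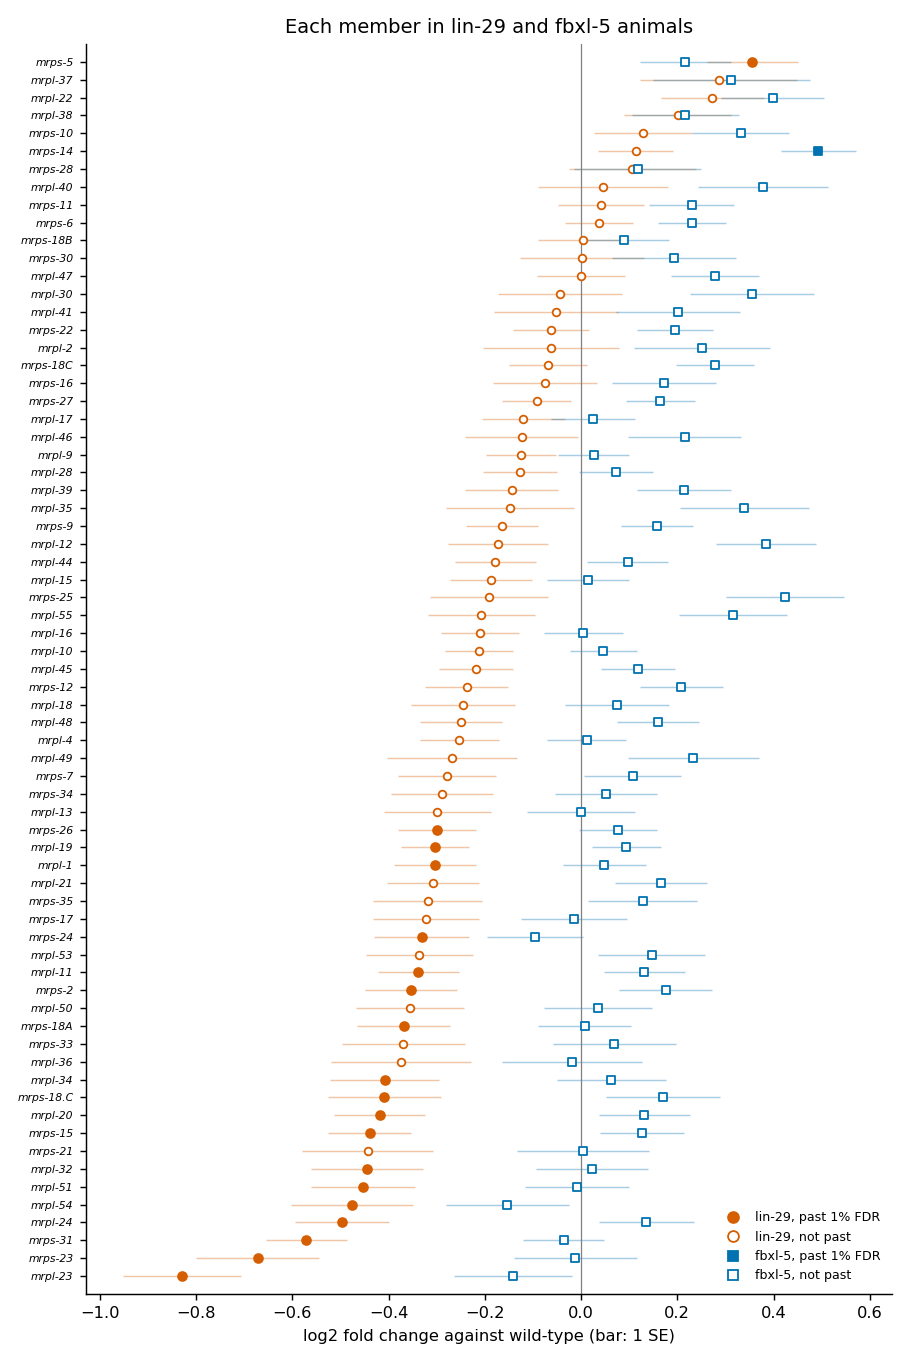
Each row is a member, ordered by its log2 fold change in *lin-29* against wild-type (circles), with its fold change in *fbxl-5* against wild-type (squares). Bars are 1 SE and filled symbols passed the FDR of 1%. In *lin-29*, 56 members lie left of 0, with *mrpl-23* at -0.83 the lowest and *mrps-5* at 0.36 the highest, and in *fbxl-5* 61 members lie right of 0.

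By subunit, the counts can be read against the 18.4% of all genes tested that were called lower. Of 40 large subunit members 10 were called lower in *lin-29* (median log2 fold change -0.21) and of 29 small subunit members 8 (27.6%) were (median -0.24). Members with a bacterial counterpart had a median of -0.24 with 12 of 41 (29.3%) called lower, and those specific to mitochondria had -0.21 with 6 of 28 (21.4%), which is near the share of all genes. All 10 members on chromosome IV, a group noticed after its values were seen, had lower means in *lin-29*, with 3 called and a median log2 fold change of -0.29.

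One library carried less of the fall. The median member stood at -0.31 and -0.30 log2 units from the wild-type mean in *lin-29* replicates 1 and 2, and at -0.10 in replicate 3. The cytosolic ribosomal protein genes stood at 0.03, 0.09 and 0.49 in the same order, and the 12 protein genes of the mitochondrial genome at -0.23, -0.15 and 0.70. Without *lin-29* replicate 3 the number of members called lower was 30 (17.7% of all genes tested). It was 8 without *lin-29* replicate 1, 9 without *lin-29* replicate 2, 10 without wild-type replicate 2 and 9 without wild-type replicate 3. In these fits 14.5% to 15.3% of all genes tested were called lower. Why replicate 3 stands apart was not tested.

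The size of the fall depended on how libraries were scaled. With the trimmed mean of M-values (TMM), 8 members were called lower and 1 higher in *lin-29* (15.3% and 23.6% of all genes tested). With scaling to the total of reads outside ribosomal RNA genes, 3 were called lower and 3 higher (10.8% and 25.5% of all genes tested). That scaling moved the median of all genes tested from -0.01 to 0.11. Relative to the median of all genes, the members lay at -0.21 on the log2 scale under each of the 3 scalings. A scaling shifts all genes of a library alike, so this distance could not change and is no check. With only genes of a mean of at least 50 it was -0.11. *mrpl-23*, *mrps-23* and *mrps-31* were called lower and *mrps-5* higher under all 3. The members' share of reads outside ribosomal RNA genes was 0.298% to 0.327% in wild-type and 0.284% to 0.313% in *lin-29*, so these ranges overlapped.

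Markers of tissues moved in the same comparison. Of 11 germ line markers 1 had a higher mean and 1 was called lower in *lin-29*, and their summed normalized counts were 137774 to 163091 in wild-type and 119279 to 137009 in *lin-29*. Of 9 oocyte markers 5 were called lower, and their sums were 195203 to 258323 in wild-type against 154986 to 177558. Of 5 body wall muscle markers 4 were called higher, with sums of 33847 to 49093 in wild-type against 57348 to 101519. Hypodermis markers, from the tissue in which LIN-29 acts, summed to 12926 to 18458 in wild-type and to 6303 to 10798 in *lin-29*, although 3 of the 6 were called higher and 1 lower. Sperm markers summed to 189 to 367 in wild-type and to 655 to 1805 in *lin-29*, with 15 of the 26 tested called higher. No germ line, oocyte, hypodermis or body wall muscle marker was at 0 in any genotype. Their part in the members' fall was not tested.

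**Figure D3:**
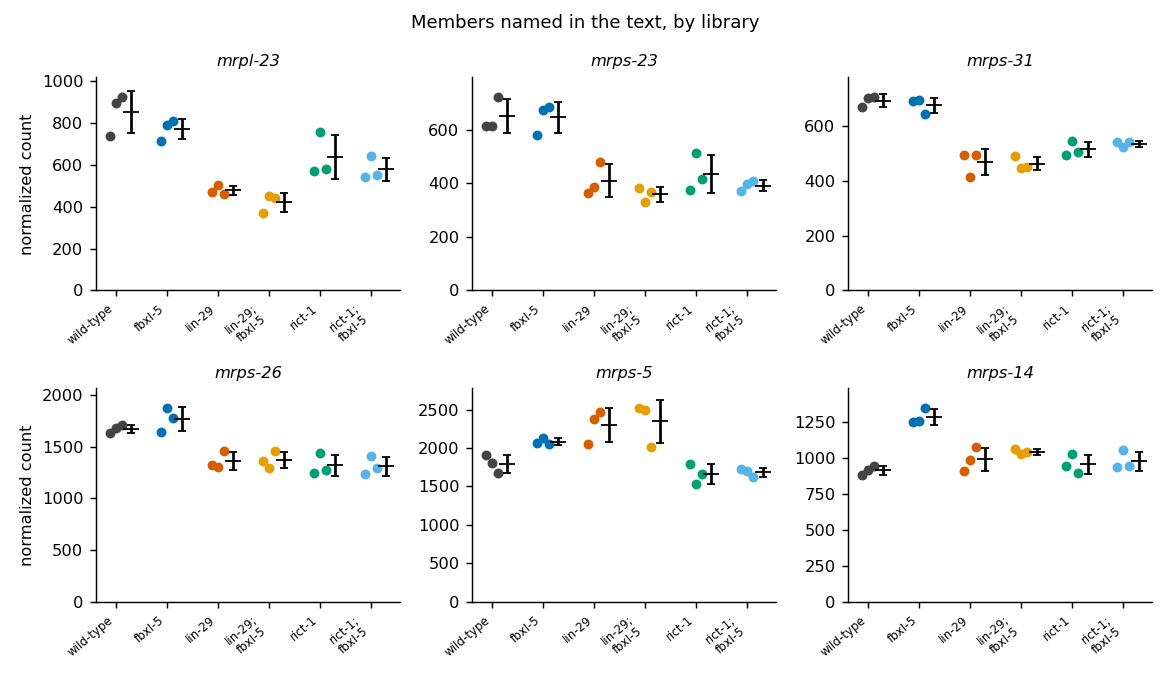
Normalized counts of 6 members in each of the 18 libraries (points, 3 per genotype) with the mean and SD beside them, on axes that start at 0. *mrpl-23*, *mrps-23* and *mrps-31* were lower in both *lin-29* genotypes, *mrps-5* was higher in them, and *mrps-14* was highest in the 3 *fbxl-5* libraries at 1248, 1256 and 1345.

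The comparison of *fbxl-5* with wild-type asks what the F-box mutation alone does. Members lay slightly higher together, and almost none passed the test: 61 of 69 had a higher mean, with a median log2 fold change of 0.13. Over all genes tested 47.2% had a higher mean, with a median of -0.02. All 3 *fbxl-5* libraries lay above all 3 wild-type libraries for 38 members and below for 0, where 18.4% and 21.6% of all genes tested did so. The test called 1 member higher and 0 lower (0.586% and 1.97% of all genes tested), and 18 members (26.1%) had an unadjusted limma p-value under 0.05, near the 24.1% of all genes tested. DESeq2 called 4 members higher and edgeR 1 (2.1% and 0.549% of all genes tested), and neither called a member lower.

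*mrps-14* (II:10240277-10242490, minus strand), a protein of the small subunit head, was the member called. Its normalized counts were 879, 916 and 939 in wild-type and 1248, 1256 and 1345 in *fbxl-5*, with no overlap. The log2 fold change was 0.49 ± 0.08 (SE, n = 3 per group, limma adjusted p = 0.00109). It remained called in every alternative and with any library left out, with log2 fold changes of 0.42 to 0.51.

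Behind it came members that missed the 1% threshold. *mrpl-22*, a protein that lines the peptide tunnel, had 549, 505 and 529 normalized counts in wild-type and 704, 697 and 683 in *fbxl-5*, a log2 difference of 0.40 ± 0.11 (limma adjusted p = 0.0312). *mrpl-12* had 1034, 969.7 and 1040.3 against 1251, 1389 and 1334, a difference of 0.38 ± 0.10 (limma adjusted p = 0.0313). Neither pair of groups overlapped. At the other end *mrpl-23* (-0.14 ± 0.12), *mrps-31* (-0.04 ± 0.08) and *mrps-23* (-0.01 ± 0.13) had log2 differences within 2 SE of 0.

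The cytosolic ribosomal protein genes had a larger difference in these libraries, with a higher mean for all 80 tested, 14 called higher and a median of 0.49. For 43 nuclear genes of the respiratory chain the median log2 fold change was 0.15 with 0 called by limma and 34 higher means. Under scaling to total reads the number of members with a higher mean was 44, and the median was 0.06. Relative to the median of all genes the members lay at 0.15, a distance that scaling cannot change. The summed level of the 11 germ line markers was 167778 to 180589 normalized counts in *fbxl-5*, above the 137774 to 163091 of wild-type, with 9 higher means and 0 called by limma. Sums of oocyte, intestine and body wall muscle markers overlapped wild-type, and the other sums did not. Neuron markers summed to 3600 to 3990 normalized counts against 4100 to 4224. Hypodermis markers summed to 10288 to 10994 normalized counts against 12926 to 18458, pharyngeal muscle markers to 459 to 813 against 1813 to 2559, and sperm markers to 417 to 576 against 189 to 367, with 0 called by limma in these 3 lists. Their part in the members' difference was not tested.

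**Figure D4:**
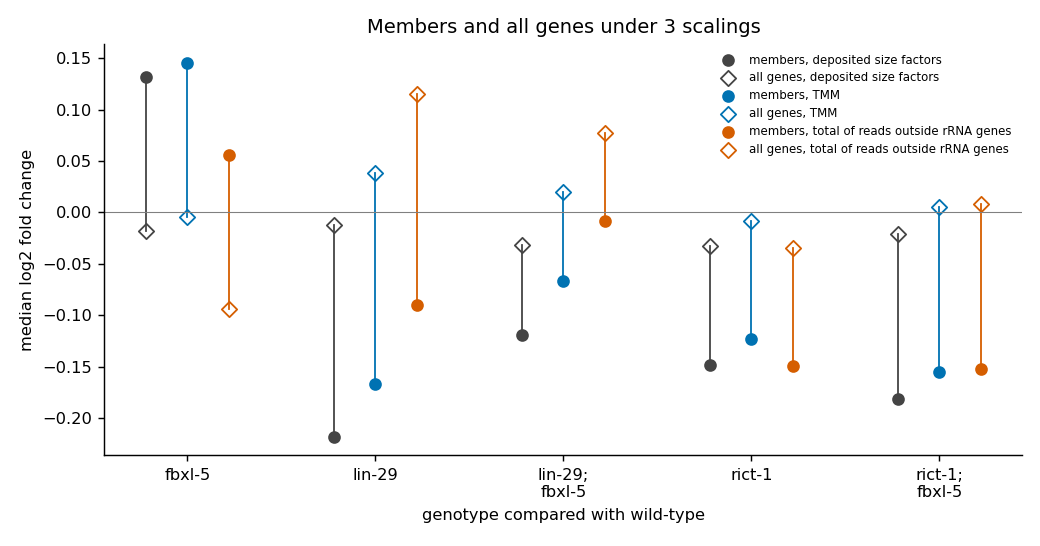
Median log2 fold change against wild-type of the 69 members (filled circles) and of all genes tested (open diamonds) under the deposited size factors, TMM, and the total of reads outside ribosomal RNA genes. A scaling shifts all genes of a library alike, so the distance between the medians cannot change. In *lin-29* the members move from -0.22 to -0.09 and all genes from -0.01 to 0.11, at a distance of -0.21.

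Compared with wild-type, *lin-29; fbxl-5* animals had 10 members called lower and 2 called higher (19.5% of all genes tested in each direction), with a median log2 fold change of -0.12. The median was -0.03 over all genes tested. Over genes with a mean of at least 50 it was -0.09, and 23.4% of them were called lower. A higher mean was found for 20 members (47.6% of all genes tested). All 3 libraries lay above wild-type for 8 members and below for 26 (27.7% and 28.0% of all genes tested). The largest falls were again in *mrpl-23*, *mrps-23* and *mrps-31*. *mrpl-23* had 368, 453 and 439.9 normalized counts, a log2 fold change of -1.02 ± 0.12 from wild-type (limma adjusted p = 4.66e-06). *mrps-23* had 384, 329 and 367 (-0.86 ± 0.13) and *mrps-31* had 492, 446 and 451 (-0.58 ± 0.08), all below the lowest wild-type library. Of the 10 members called lower, 8 were also called lower in *lin-29*, in comparisons that share the wild-type libraries.

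The members called higher in the double mutant were *mrps-5* and *mrpl-22*. *mrps-5* had 2523, 2496 and 2019.7 normalized counts, a log2 fold change of 0.38 ± 0.09 (limma adjusted p = 0.00303). *mrpl-22* had 761, 689.6 and 591, a log2 fold change of 0.36 ± 0.11 with a limma adjusted p of 0.00999, and a pseudocount of 0.5 or 8 ended this call. Without *lin-29; fbxl-5* replicate 2 or wild-type replicate 3 the number called lower was 5 (14.6% and 15.7% of all genes tested). With TMM 5 were called lower and 2 higher (16.4% and 20.8% of all genes tested). With scaling to total reads 4 were called lower and 7 higher (13.0% and 22.6% of all genes tested). The median fold change was -0.07 with TMM and -0.009 with scaling to total reads, where 31 members had a higher mean.

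Within *lin-29*, loss of *fbxl-5* left most members slightly higher, and none passed the test. With *fbxl-5* lost as well, 55 of 69 members had a higher mean (45.8% of all genes tested), and the median log2 difference was 0.09. The 3 libraries of one genotype lay above those of the other for 8 members and below for 2 (7.88% and 11.1% of all genes tested). Limma called 0 members (among all genes tested, 1.32% rose and 4.5% fell), and 7 members (24.9% of all genes tested) had an unadjusted p under 0.05. DESeq2 called 1 member higher and edgeR 0 (2.4% and 1.34% of all genes tested). The lowest adjusted p was that of *mrps-2*, a gene singled out after its values were seen. It had 914, 869 and 976 normalized counts in *lin-29* and 1118, 1157 and 1351 in the double mutant, a log2 difference of 0.39 ± 0.10 (limma adjusted p = 0.0131). Its downstream neighbour *mrpl-4* had 664, 634 and 757 against 736, 724 and 798, a difference of 0.14 ± 0.08. Without *lin-29* replicate 3, 2 members were called higher (3.05% of all genes tested) and the median difference was 0.16. Without *lin-29* replicate 1 the median was 0.04 with 45 members above 0.

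In *rict-1* against wild-type 7 members were called lower and 0 higher (5.78% and 10.7% of all genes tested). The median log2 fold change was -0.15, against -0.03 over all genes tested. Over genes with a mean of at least 50 it was -0.06, and 7.05% of them were called lower. The mean was higher for 14 members (47.0% of all genes tested), and all 3 libraries lay above wild-type for 1 member and below for 21 (24.4% and 22.6% of all genes tested). *mrps-23* had 376, 513 and 416 normalized counts, a log2 fold change of -0.59 ± 0.13 (limma adjusted p = 0.00236). *mrps-31* had 494, 544 and 505, at -0.43 ± 0.08 (limma adjusted p = 0.00112), and was the 1 member named here whose call in *rict-1* stayed with any library left out. *mrpl-44* went from 6149, 5709 and 5833 to 4798, 4231 and 4829 normalized counts, a log2 fold change of -0.35 ± 0.08 (limma adjusted p = 0.00471).

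The others called were *mrps-26* (-0.34), *mrpl-45* (-0.33), a protein that in mammals anchors the ribosome to the inner membrane, *mrps-22* (-0.30) and *mrps-9* (-0.28). Of the 7, 6 are specific to mitochondria, which were 6 of 28 against 1 of 41 with a bacterial counterpart. This contrast was noticed in the data and was not tested. The 28 had a median of -0.22 and the 41 a median of -0.13. Only 2 members were called lower when *rict-1* replicate 1, wild-type replicate 2 or wild-type replicate 3 was left out, and 3 when wild-type replicate 1 or *rict-1* replicate 3 was. Of all genes tested 4.53%, 3.01% and 3.94% were called lower in the fits that gave 2, and 2.88% and 3.01% in those that gave 3.

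In *rict-1; fbxl-5* against wild-type, 7 members were called lower and 0 higher (3.56% and 7.36% of all genes tested). The median log2 fold change was -0.18, against -0.02 over all genes tested. Over genes with a mean of at least 50 it was -0.06, and 4.56% of them were called lower. The mean was higher for 11 members, where it was so for 47.9% of all genes tested. All 3 libraries lay above wild-type for 2 members and below for 40, against 23.1% and 24.1% of all genes tested. *mrps-23* had 371, 396 and 409 normalized counts, a log2 fold change of -0.73 ± 0.13 (limma adjusted p = 0.000726). *mrpl-23* had 542, 641 and 551, all below wild-type, at -0.56 ± 0.12 (limma adjusted p = 0.00392). *mrps-31* was at 542, 523 and 540.2 normalized counts (-0.37 ± 0.08), and *mrps-26*, *mrpl-44*, *mrpl-45* and *mrpl-9* were called at -0.35, -0.34, -0.34 and -0.30. Of the 7, 5 were also called lower in *rict-1*, with the same wild-type libraries. The count was 3 without wild-type replicate 1 or *rict-1; fbxl-5* replicate 2 and 1 without any of the other 4 libraries. Of all genes tested 1.83% and 2.09% were called lower in the fits that gave 3, and 1.66% to 1.95% in those that gave 1.

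Intestine and pharyngeal muscle markers differed in both *rict-1* genotypes. The summed level of 6 intestine genes was 48931 to 60223 normalized counts in wild-type, 177966 to 208909 in *rict-1* and 128063 to 138224 in *rict-1; fbxl-5*, with 5 and 4 markers called higher and 1 called lower in each. The 3 pharyngeal muscle markers summed to 1813 to 2559 in wild-type, 264 to 503 in *rict-1* and 438 to 915 in *rict-1; fbxl-5*, with 2 called lower in *rict-1* and 0 by limma in the double mutant. Sperm markers summed to 564 to 1321 in *rict-1; fbxl-5*, against 189 to 367 in wild-type. No intestine or pharyngeal muscle marker was at 0. Their part in the members' difference was not tested. The members' share of reads outside ribosomal RNA genes was 0.261% to 0.294% in *rict-1* and 0.260% to 0.285% in *rict-1; fbxl-5*, below the 0.298% to 0.327% of wild-type in every library.

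Within *rict-1*, loss of *fbxl-5* left the members near where they were. The median log2 difference was -0.03, 21 members had a higher mean (51.7% of all genes tested) and limma called 0 (among all genes tested, 0.327% rose and 1.06% fell), with 1 member at an unadjusted p under 0.05 (12.6% of all genes tested). The number with a higher mean was 34 under scaling to total reads and 31 without *rict-1* replicate 2. DESeq2 and edgeR called 0. No member lay above in all 3 libraries and 5 lay below (8.75% and 13.2% of all genes tested). SEs of single members were 0.07 to 0.16 log2 units. The largest difference of a member was 0.28 in size and was not called, so differences larger than an SE can go undetected at this replication.

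The difference between backgrounds was tested as an interaction, the *fbxl-5* effect in *lin-29* or *rict-1* minus that in wild-type. Against *rict-1*, the interaction was below 0 for 65 members (51.4% of all genes tested were above 0), with a median of -0.16 log2 units. Limma called 0 members (0.631% of all genes tested above and 0.223% below), and 11 had an unadjusted p under 0.05 (17.4% of all genes tested). Under scaling to total reads the median was -0.06 with 16 members above 0. Relative to the median of all genes it was -0.17, a distance that scaling cannot change. Against *lin-29* it was below 0 for 44 members (49.1% of all genes tested were above 0), with a median of -0.06 and 0 called (0.713% above and 1.68% below), and 4 members had an unadjusted p under 0.05 (21.5% of all genes tested). This median had no stable direction: without *lin-29* replicate 3 it was 0.01 with 35 members above 0, and under scaling to total reads -0.005 with 34 above 0. So by limma no member was shown to respond to *fbxl-5* loss differently in another background at this threshold.

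*mrps-14* came nearest in both. Its normalized counts were 910.4, 983 and 1071 in *lin-29* and 1059, 1022 and 1039 with *fbxl-5* loss added, and 940.0, 1023 and 895 in *rict-1* and 934, 1051 and 940.3 with it added. The groups overlapped in both backgrounds. The interaction was -0.42 ± 0.11 log2 units with *lin-29* (limma adjusted p = 0.0319) and -0.46 ± 0.11 with *rict-1* (limma adjusted p = 0.0282), and DESeq2 called both. The largest interactions in size were those of *mrpl-30* with *lin-29* (-0.48 ± 0.18, limma adjusted p = 0.13) and *mrpl-55* with *rict-1* (-0.59 ± 0.16, limma adjusted p = 0.0473). *mrpl-55*, specific to mitochondria, had 281, 289 and 317 normalized counts in wild-type and 353, 391 and 360.0 in *fbxl-5*. In *rict-1* it had 332, 381 and 340.1, and in *rict-1; fbxl-5* 266, 332 and 275, so single libraries met at 332. The *fbxl-5* difference of *mrpl-55* was above 0 in wild-type and below 0 in *rict-1*, and limma called neither.

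**Figure D5:**
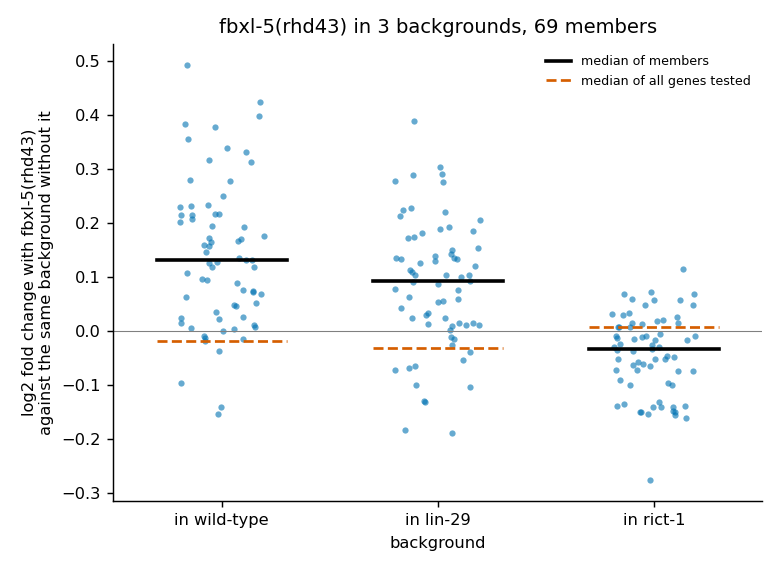
Each point is 1 member's log2 fold change on adding *fbxl-5(rhd43)* in wild-type, *lin-29* or *rict-1* animals, with the median of the members (solid) and of all genes tested (dashed). Member medians are 0.13, 0.09 and -0.03, and 61, 55 and 21 of 69 points lie above 0.

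The *fbxl-5* effects in the 3 backgrounds share no library and can be set side by side. Members with the same sign in wild-type and *lin-29* numbered 55, with a Pearson's r across the 69 members of 0.20, and those with the same sign in wild-type and *rict-1* numbered 25, with an r of 0.39. In all 3 backgrounds 14 members had a higher mean with *fbxl-5* loss. Higher means numbered 61, 55 and 21 of 69 in wild-type, *lin-29* and *rict-1*. Unrelated signs would then also give many matches, so these counts do not show agreement gene by gene. The values of r are correlations across genes of the same libraries and carry no p-value.

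Across comparisons, *mrps-23*, *mrps-26* and *mrps-31* were called lower in all 4 genotypes that carry *lin-29* or *rict-1*, and all 3 are small subunit proteins specific to mitochondria. *mrps-26* (III:5234612-5236364, plus strand) had 1632, 1682 and 1709.9 normalized counts in wild-type and 1643, 1878 and 1784 in *fbxl-5*. In the 4 other genotypes its libraries ran from 1236 to 1459, none reaching wild-type. Its log2 fold changes were -0.30, -0.29, -0.34 and -0.35 in *lin-29*, *lin-29; fbxl-5*, *rict-1* and *rict-1; fbxl-5*, and scaling to total reads ended each of these calls. The 4 comparisons share the wild-type libraries and are not independent.

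Genes just upstream of members also had lower medians in *lin-29* and *rict-1*, while pair by pair the fold changes were only weakly related. For 25 members the gene that ends within 500 bp upstream was also tested, at a median distance of 105 bp. In *lin-29* against wild-type the Pearson's r between the log2 fold changes of member and upstream gene was 0.06 over the 25 pairs, with the same sign in 17, and in *fbxl-5* it was -0.21 with the same sign in 8. Over the 7 comparisons of genotypes r lay between -0.21 and 0.23. The median log2 fold change of the upstream genes was -0.27 in *lin-29* and -0.25 in *lin-29; fbxl-5*. It was -0.25 in *rict-1* and -0.22 in *rict-1; fbxl-5*, with the sign of the member in 19 of 25 pairs in each. For *mrpl-23* the upstream gene is *fars-1*, which encodes a phenylalanyl-tRNA synthetase and had a log2 fold change of -0.27 in *lin-29* (limma adjusted p = 0.0209) against -0.83 for the member, and for *mrps-14* it is *nrde-2*, whose log2 fold change in *fbxl-5* was 0.01 against 0.49 for the member. *mrps-22* and *dap-3* were at 0.20 and 0.21 in *fbxl-5*, neither called.

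Other genes of mitochondrial protein synthesis were taken from lists. Among all genes tested 18.4% were called lower and 22.6% higher in *lin-29*, 5.78% and 10.7% in *rict-1*, and 1.97% and 0.586% in *fbxl-5*. Of 15 mitochondrial translation factors and tRNA synthetases, 3 were called lower and 0 higher in *lin-29* (median -0.13), 3 lower in *rict-1* (median -0.24) and 0 in *fbxl-5* by limma (median 0.03). Of 13 genes of protein import into mitochondria 2 were called lower in *lin-29* (median -0.26), 3 in *rict-1* (median -0.22) and 0 in *fbxl-5* by limma (median 0.16). The 43 respiratory chain genes had medians of 0.05 in *lin-29* with 2 called higher and 1 lower, and -0.06 in *rict-1* with 0 called by limma. The 12 protein genes of the mitochondrial genome, whose messages the members translate, had 0 calls by limma in any comparison, with *lin-29* replicate 3 and *lin-29; fbxl-5* replicate 3 at 0.70 and 1.04 log2 units above wild-type.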

How the data were processed

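mRNA-Seq libraries of 6 genotypes, 3 each, were grouped by the genotype in the sample labels. Per the labels and the methods, the authors sequenced 50 base single-end reads and used the WS260 genome. The labels' processing notes name STAR, featureCounts, Subread and DESeq2 without versions. The deposited values are a signal: read counts divided by the library's DESeq2 size factor. They were whole multiples of 1 read in 100% of values (tolerance 0.01 reads), which gave back the counts. The authors' 7 tables of their own fold changes and p-values were not used.

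log2(value + 1) of the 13472 genes with a mean of at least 10 was fitted with limma 3.58.1 in R 4.3.3 (1 mean per genotype, mean trend, robust prior) at an FDR of 1%, the study's threshold. Alternatives were DESeq2 1.42.0, edgeR 4.0.16, 2 other scalings, pseudocounts of 0.5 and 8, other filters, an FDR of 5%, the compared libraries alone, a replicate block and each library left out. The fit was tested on simulated data. Same-numbered *rict-1* and *rict-1; fbxl-5* libraries deviated together (correlations 0.65, 0.39 and 0.24), which the labels do not state. The highest correlation between differently numbered libraries was 0.28, above that of the replicate 3 pair, so the pairing is uncertain. In none of the other 6 comparisons of genotypes were all 3 same-numbered correlations above 0.1. Gene names matched 92.7% of identifiers, and positions and exon lengths came from the WBcel235 annotation, the assembly of WS260.

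Members and lists were chosen with earlier results of these data known. Named members were the 3 largest called rises and falls of each comparison, calls against the median direction, members called most often, the largest interactions, the 3 highest and lowest levels per kilobase and 7 genes of known role. Genes on the mitochondrial genome were taken by position after a list by symbol matched 0 genes.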

Additional observations from a re-analysis of the deposited data

How the results depend on the processing

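The 26 calls of named members kept their direction under all 11 alternatives and with each library left out. The other filters, the block, the compared libraries alone and the FDR of 5% leave the fold change unchanged, so direction could not turn there. Many of these members were picked for large changes in these data, so a kept direction is a weak check. Of the 26 calls, 9 were kept throughout: *mrps-14* in *fbxl-5*, *mrpl-23*, *mrps-23* and *mrps-31* in *lin-29* and in *lin-29; fbxl-5*, *mrps-31* in *rict-1* and *mrps-23* in *rict-1; fbxl-5*. Counts of calls moved more. Members called lower in *lin-29* were 18, and 9 with edgeR, 8 with TMM, 3 with total scaling, 11 with no filter, 7 with the compared libraries alone, 35 at an FDR of 5% and 8 to 30 with a library left out. Of all genes tested 18.4% were lower there, and 15.3% with edgeR or TMM and 10.8% with total scaling. The share was 8.83% with no filter and 13.1% with the compared libraries alone, and 3557 of 13472 genes were lower at 5%. Members called higher there were 1, and 3 with total scaling, 0 with the compared libraries alone, 2 at 5% and 0 to 1 with a library left out. In *lin-29; fbxl-5* members lower were 10, and 5 with edgeR, TMM, no filter or the compared libraries alone, 4 with total scaling, 19 at 5% and 5 to 11 with a library left out. With edgeR, the other scalings, no filter or the compared libraries alone, 9.54% to 16.4% of all genes were lower. Members higher were 2, and 7 with total scaling, 1 with either pseudocount or no filter, 0 with the compared libraries alone, 5 at 5% and 0 to 3 with a library left out. In *fbxl-5* the 1 higher became 4 with DESeq2, 8 with the compared libraries alone and 5 at 5%. The number of all genes called higher there went from 79 to 283, 734 and 390 in the same order, out of 13472. In *rict-1* the 7 lower became 3 with no filter, 2 with the compared libraries alone, 14 at 5% and 2 to 6 with a library left out. Of all genes 2.32% were lower with no filter, 6.06% with the compared libraries alone and 1827 of 13472 at 5%. In *rict-1; fbxl-5* the 7 lower became 13 with DESeq2, 4 with total scaling, 2 with no filter, 11 with the compared libraries alone, 22 at 5% and 1 to 3 with a library left out. Of all genes 6.38% were lower with DESeq2, 3.06% with total scaling and 1.43% with no filter. With the compared libraries alone 8.56% were lower, and 1336 of 13472 genes were at 5%. In *lin-29; fbxl-5* against *lin-29* the 0 higher became 1 with DESeq2 or at 5% and 0 to 2 with a library left out. In the interactions the 0 lower became 1 with DESeq2 for each, 1 at 5% for *lin-29* and 2 at 5% for *rict-1*. Why the counts changed was not tested.

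With the replicate number as a block, 12 members were lower in *rict-1; fbxl-5* against wild-type (7 without it), 23 in *lin-29* (18 without it) and 1 was higher in *lin-29; fbxl-5* against *lin-29* (0 without it). Between *rict-1* and *rict-1; fbxl-5*, whose numbers were taken to pair the libraries, the block called 0 members, as did the fit without it. With 3 libraries per genotype, SEs of 0.07 to 0.16 log2 units limit what could be called.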

Other observations

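The mitochondrial and the cytosolic ribosome had medians of opposite sign in *lin-29*. The median log2 fold change was -0.22 over the 69 mitochondrial members and 0.19 over 80 cytosolic ribosomal protein genes. Of the latter, 4 were called higher and 0 lower (22.6% and 18.4% of all genes tested). By library the cytosolic median was 0.03, 0.09 and 0.49 in *lin-29* replicates 1, 2 and 3, so it rested largely on replicate 3. In *lin-29; fbxl-5* the medians were -0.12 and 0.28, with 19 of 80 cytosolic genes called higher (19.5% of all genes tested). In *fbxl-5* both were above 0, at 0.13 and 0.49, and in *rict-1* they were -0.15 and -0.03. The interaction of *fbxl-5* with *rict-1* was below 0 for all 80 cytosolic genes, with a median of -0.47 and 0 called by limma, against -0.16 for the mitochondrial members.

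The 2 ribosomal RNA genes of the mitochondrial genome summed to 194 to 302 normalized counts in wild-type. In *fbxl-5* the 3 libraries held 253, 499.6 and 4662, so the lowest overlapped wild-type and 1 library stood far above the others. Limma called 0 of the 2 in any comparison. The libraries were made from polyadenylated RNA. Within *lin-29*, the library in which the members lay nearest to wild-type, replicate 3, was also the one with the highest median of cytosolic ribosomal protein genes (0.49) and of mitochondrial genome protein genes (0.70), and with the highest summed level of 34 sperm markers (1805 normalized counts, against 655 and 805 in the other *lin-29* libraries and 189 to 367 in wild-type).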
